A study of Mus musculus with 6 samples.

Results

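The genes described here carry cholesterol out of cells or handle lipid in the lysosome. They are Abca1, Abcg1, Npc1, Npc2, Scarb1, Soat1, Pltp, Nceh1, Lipa and Mylip, 10 of the 35122 genes listed, chosen by their symbols and matched through their Ensembl mouse identifiers. RNA came from male C57BL/6 mice on chow, with 1 library per mouse and 3 mice in each group. The source was the adipocyte fraction, which floats when epididymal fat is digested with collagenase. Control mice were PU.1 fl/fl: both Spi1 alleles carried a floxed exon, which was intact, and there was no Cre. The study describes its controls as littermates. The aPU.1KO mice were AdipoqCre_PU.1 fl/fl: they had the same floxed alleles and Cre expressed from the adiponectin promoter, which is active in adipocytes. All 6 mice were 10 to 11 months old by their labels. Numbers 1 to 3 name the mice of each group, ordered as labelled. Levels are given as CPM, the count relative to 1000000 counts of the scaled library, and log2 fold changes compare aPU.1KO with control, negative where aPU.1KO was lower.

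Cells take up cholesterol in lipoproteins, whose cholesteryl esters are cut in the lysosome by the acid lipase that Lipa encodes. The free sterol is handed by the NPC2 protein to NPC1 in the lysosomal membrane and then leaves for other membranes. In the endoplasmic reticulum SOAT1 esterifies the excess for storage in droplets, and neutral hydrolases such as NCEH1 free it again. ABCA1 moves cholesterol to lipid-poor apolipoprotein A-I and ABCG1 to high-density lipoprotein (HDL), SR-BI (Scarb1) exchanges cholesterol with HDL, and phospholipid transfer protein (Pltp) remodels HDL. Mylip encodes IDOL, a ubiquitin ligase that marks the low-density lipoprotein receptor for degradation. Abca1, Abcg1, Pltp and Mylip are well-known targets of the liver X receptors (LXRs), which sense oxidised sterols. Adipocytes hold a large pool of mostly free cholesterol, whereas macrophages that take up lipid store it as ester.

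Total counts ranged from 20550252 to 24310144 in 5 libraries and reached 69283842 in control mouse 1. The targeted gene, Spi1, had 24.3, 6.35 and 26.7 CPM in control mice 1, 2 and 3, against 3.20, 1.22 and 4.17 CPM in the aPU.1KO mice. The groups did not overlap, but control mouse 2 lay nearer to the aPU.1KO mice than to the other controls (log2 fold change -2.75, standard error 0.64, edgeR quasi-likelihood adjusted p = 0.0788 after Benjamini and Hochberg; 7.65e-05 by DESeq2). The counts are per gene and hold reads from every Spi1 exon, so they do not measure the floxed exon itself. Of 17 macrophage markers, 16 were lower in aPU.1KO mice at an unadjusted p under 0.05, against 13.7% of all genes tested. The exception was Cd163 (log2 fold change 0.29). None of the 17 was at 0 in any mouse, and their summed level was 2064, 563.6 and 1991 CPM in the control mice and 383.5, 246.4 and 363.1 CPM in the aPU.1KO mice. Of 12 adipocyte markers, all above 0 in every mouse, 9 lay higher and 1 lay lower at that p (11.9% and 13.7% of all genes tested). Their sums were 29635 to 32400 CPM in control mice and 35887 to 42318 CPM in aPU.1KO mice. The 9 became 2 without control mouse 1, 3 without aPU.1KO mouse 2 and 4 without control mouse 3 or without aPU.1KO mouse 1. Over all genes tested, the 1662 higher became 573, 1408, 992 and 1250 in these fits, in that order. The 1 became 0 without aPU.1KO mouse 1 or without any one of the controls. Lyz2 and Fabp4 had the highest mean level of the macrophage and the adipocyte markers, respectively. The study proposes that macrophages may have remained in its adipocyte fraction. In bulk RNA, fewer cells of a type and less RNA per cell cannot be told apart.

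The ester-handling genes Nceh1, Soat1 and Lipa, and Pltp, had the lowest levels relative to control in the adipocyte fraction of aPU.1KO mice. The efflux gene Abca1 and the lysosomal gene Npc2 had log2 fold changes of -0.10 and -0.12. Nceh1 was 6.92-fold lower, Soat1 3.34-fold, Pltp 2.68-fold and Lipa 2.66-fold, with n = 3 mice per group. None of the 10 genes passed an adjusted p of 0.05 by edgeR, a threshold that 33 of 13925 genes tested passed (0.237%). At an unadjusted p under 0.05, edgeR found 5 of the 10 lower (Nceh1, Soat1, Lipa, Pltp and Npc1), against 13.7% of all genes tested, and 0 higher, against 11.9%. DESeq2 put 4 of the 10 (Nceh1, Soat1, Lipa and Pltp) below an adjusted p of 0.05 as lower, against 7.48% of its genes. limma-voom put 0 of the 10 below that threshold, against 0.33% of all genes tested, and 5 below an unadjusted p of 0.05 as lower, against 14.5%. The median log2 fold change was -0.43 over the 10 genes and 0.01 over all genes tested. All 10 passed the filter on low counts, and the lowest count of any of them in any library was 53.

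**Figure D1:**
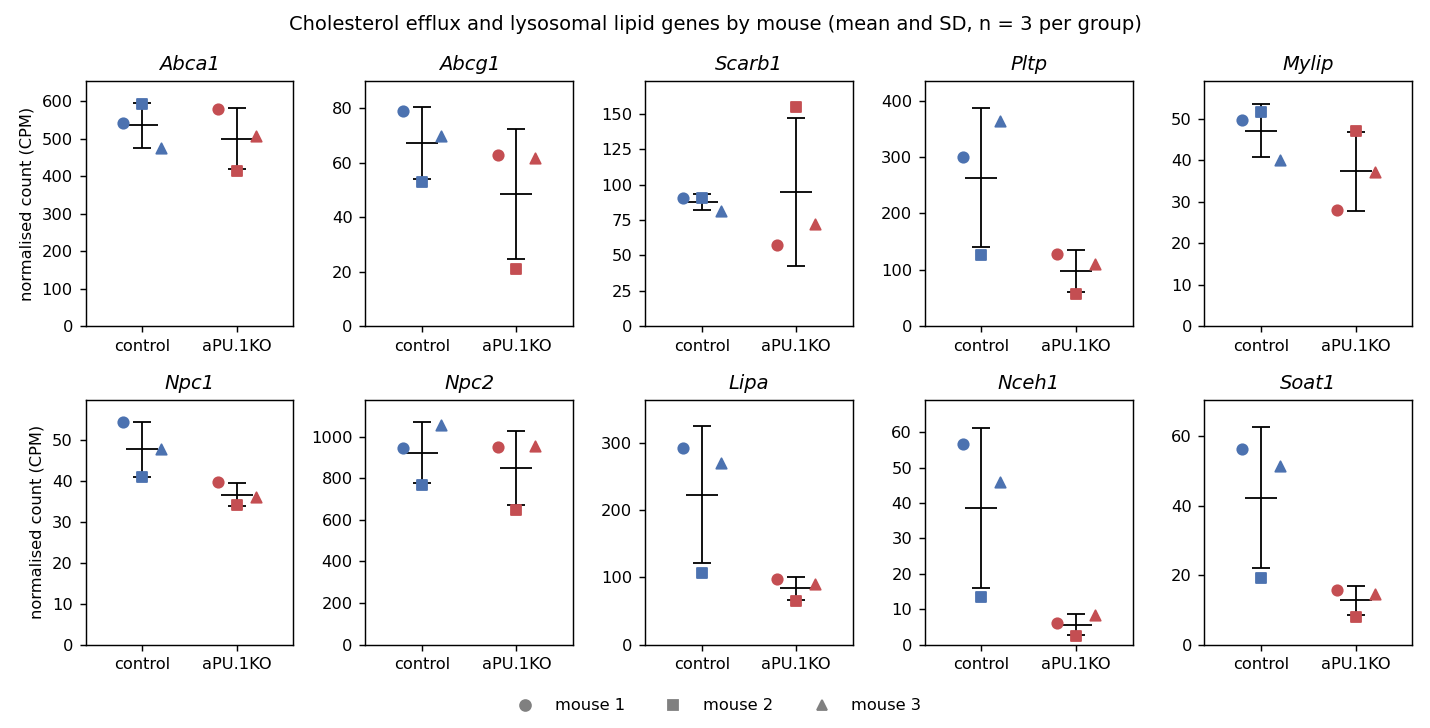
Normalised counts (CPM, vertical axes starting at 0) of the 10 genes in each mouse, with circles, squares and triangles for mice 1, 2 and 3 of a group and black bars for the mean and SD (n = 3). In Nceh1, Soat1, Lipa and Npc1 the groups do not overlap, and in Nceh1, Soat1, Lipa and Pltp control mouse 2 lies far below the other controls.

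Nceh1 (ENSMUSG00000027698, chr3:27182965-27284608, plus strand, GRCm38) encodes a neutral cholesteryl ester hydrolase of the endoplasmic reticulum that is prominent in macrophages. Its levels were 56.6, 13.3 and 45.8 CPM in control mice 1, 2 and 3 and 6.20, 2.40 and 8.24 CPM in aPU.1KO mice 1, 2 and 3. The groups did not overlap, but the control mice spanned a 4.26-fold range, the widest of the 10 genes, with control mouse 2 at the bottom. The means were 38.6 ± 22.6 and 5.61 ± 2.97 CPM (SD, n = 3), and the log2 fold change was -2.79 (standard error 0.63, edgeR adjusted p = 0.0786, DESeq2 adjusted p = 0.00426). With each mouse left out in turn it stayed between -3.20 and -2.42, and the edgeR adjusted p ran from 0.0127 to 0.313.

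Soat1 (ENSMUSG00000026600, chr1:156424525-156474331, minus strand) encodes the acyltransferase that makes the ester which Nceh1's product cuts. It had 56.5, 19.0 and 51.4 CPM in the control mice and 15.7, 7.91 and 14.6 CPM in the aPU.1KO mice. The groups did not overlap, and control mouse 2 lay nearer to the aPU.1KO mice than to the other controls. The means were 42.3 ± 20.3 and 12.7 ± 4.20 CPM, and the log2 fold change was -1.74 (standard error 0.44, edgeR adjusted p = 0.0892, DESeq2 adjusted p = 0.000864). Leaving out single mice gave -2.10 to -1.49 and edgeR adjusted p values of 0.0117 to 0.338. There were 0.997, 1.43 and 1.12 Soat1 counts per Nceh1 count in the control mice and 2.52, 3.30 and 1.77 in the aPU.1KO mice. This ratio was formed after the values were seen and was not tested.

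Lipa (ENSMUSG00000024781, chr19:34492318-34527474, minus strand), for lysosomal acid lipase, had 291.8, 105.8 and 270.2 CPM in the control mice and 97.4, 64.2 and 89.3 CPM in the aPU.1KO mice. Again no aPU.1KO mouse reached the lowest control, mouse 2, which lay close to aPU.1KO mouse 1. The means were 222.6 ± 101.7 and 83.6 ± 17.3 CPM, and the log2 fold change was -1.41 (standard error 0.38, edgeR adjusted p = 0.0942, DESeq2 adjusted p = 0.00178). With single mice left out, the log2 fold change was -1.76 to -1.19 and the edgeR adjusted p 0.00659 to 0.348.

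Pltp (ENSMUSG00000017754, chr2:164839518-164857711, minus strand), the secreted phospholipid transfer protein, had 300.6, 126.5 and 364.0 CPM in the control mice and 128.6, 56.3 and 110.3 CPM in the aPU.1KO mice. Here the groups overlapped, since control mouse 2 lay below aPU.1KO mouse 1. The means were 263.7 ± 123 and 98.4 ± 37.6 CPM, and the log2 fold change was -1.42 (standard error 0.44, edgeR adjusted p = 0.116, DESeq2 adjusted p = 0.00782). It was -1.77 to -1.12 with single mice left out, with edgeR adjusted p values of 0.0324 to 0.389. Pltp shares 495 exon bases, 19.3% of its exon length, with Ctsa on the opposite strand. Whether the reads were assigned by strand is not given in the sources used here, so reads of Pltp and Ctsa may not be separable there. Ctsa, a lysosomal carboxypeptidase gene, had 113.9 to 163.3 CPM in control mice and 97.7 to 112.7 CPM in aPU.1KO mice (log2 fold change -0.42, standard error 0.15, edgeR adjusted p = 0.136).

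**Figure D2:**
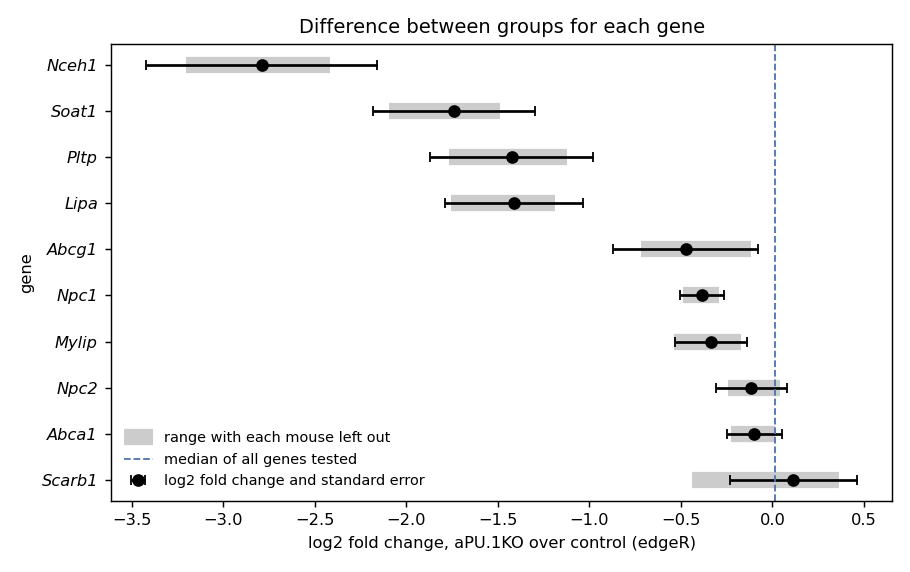
Log2 fold change of each of the 10 genes (aPU.1KO over control, edgeR; points with standard errors, n = 3 mice per group), with grey bars for the range when each mouse was left out in turn and a dashed line for the median of all genes tested. Nceh1, Soat1, Pltp and Lipa lie between -2.79 and -1.41, and the other 6 between -0.47 and 0.11.

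Mouse 2 of each group was the lowest of its group both for the 4 genes with the largest differences and for the summed macrophage markers. Control mouse 2 was the lowest control for each of them, as it was for 7 of the 10 genes and for 43.7% of all genes tested. aPU.1KO mouse 2 was the lowest of the 6 mice for each of them, as it was for 8 of the 10 genes (all but Scarb1 and Mylip), against 25.5% of all genes tested. Relative to the control mean, the log2 level in control mouse 2 was -1.54 for Nceh1, -1.15 for Soat1, -1.06 for Pltp and -1.07 for Lipa, beside -1.59 for Spi1 and -1.45 for the summed macrophage markers. In aPU.1KO mouse 2 the same values were -4.01, -2.42, -2.23 and -1.79, beside -3.97 for Spi1 and -2.64 for the sum. The part of the macrophage markers in these differences was not tested. Without control mouse 2, edgeR put the same 4 genes below an adjusted p of 0.05 as lower, against 6.93% of all genes tested in that fit. The summed macrophage markers were lower in aPU.1KO mice with that mouse left out as well.

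**Figure D3:**
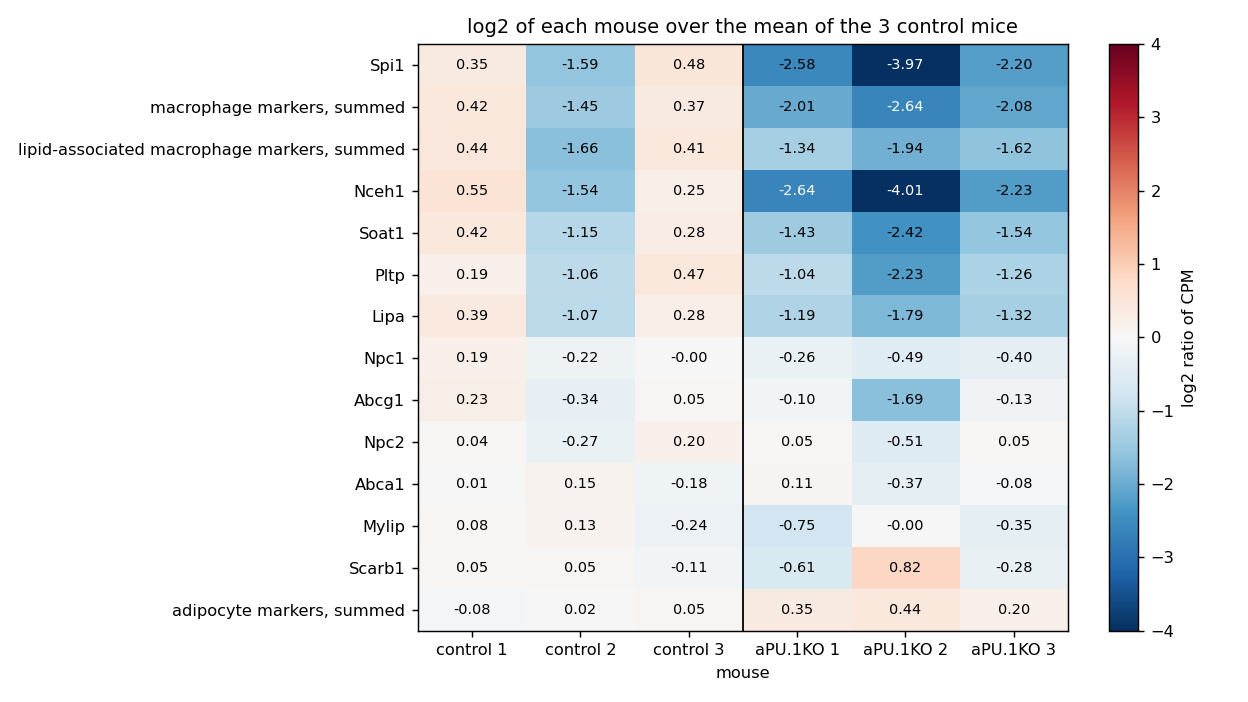
Log2 of each mouse's CPM over the mean of the 3 control mice (columns, mice; rows, Spi1, summed markers and the 10 genes; blue, lower; red, higher). Control mouse 2 and aPU.1KO mouse 2 have the lowest value of their group for Spi1, for both macrophage marker sums and for Nceh1, Soat1, Pltp and Lipa, while Scarb1 is highest in aPU.1KO mouse 2 (0.82).

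Of 8 markers of lipid-associated macrophages, which line dying adipocytes and take up their lipid, 7 were lower at an unadjusted p under 0.05. Of all genes tested, 13.7% were lower at that p. Fabp5, the most abundant of the 8, was near parity (log2 fold change 0.06). The sums of this list were 1310, 306.3 and 1285 CPM in the control mice. They were 382.4, 252.8 and 315.2 CPM in the aPU.1KO mice, so the groups overlapped at control mouse 2. Fabp5 and Cd9 of this list are also expressed by adipocytes. Spp1 was at 0 in aPU.1KO mouse 2. Trem2, the receptor that defines these cells, had 66.5, 8.93 and 74.1 CPM in the control mice and 6.91, 1.58 and 7.44 CPM in the aPU.1KO mice (log2 fold change -3.24). Their part in the lower levels of the ester-handling genes was not tested.

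Markers of other cell types were compared in the same way, beside the 13.7% of all genes tested that were lower at an unadjusted p under 0.05. Of 9 progenitor and fibroblast markers, led by Col3a1, 6 were lower at an unadjusted p under 0.05, with sums of 1337 to 1805 CPM in control mice and 740.1 to 1056 CPM in aPU.1KO mice and no marker at 0. Of 8 endothelial markers, led by Cdh5, 2 were lower at that p, with sums of 550.4 to 786.3 and 330.3 to 702.7 CPM. The 2 became 8 without aPU.1KO mouse 2, 3 without control mouse 3 and 1 without any one of the other 4 mice. Of 6 mesothelial markers, led by Upk3b, 0 passed it by edgeR or by DESeq2's adjusted p, with sums of 4.64 to 16.8 and 6.58 to 8.54 CPM, and at the unadjusted p 3 were lower when control mouse 3 was left out and 1 when aPU.1KO mouse 2 was. All 9 hepatocyte markers, led by Alb, were lower, with sums of 41.2 to 64.1 and 18.2 to 24.5 CPM, and 5 of them were at 0 in at least 1 mouse. Their part in the results for the 10 genes was not tested.

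Promoter sequences are shown for 3 of the genes, Nceh1 and Lipa as ester hydrolases that were lower and Abca1 as an efflux gene whose groups overlapped. The RefSeq promoter table (GRCm38.p6), which spans 250 bases before to 50 after each start, held 7 of the 10 genes, and Abcg1, Scarb1 and Npc1 had no window. Searched on both strands were GAGGAAGT, a PU.1-type ETS motif, and its core GAGGAA, which lies within the longer motif. The E-box CACGTG and the TATA box TATAAA were searched as well, and 2 copies of GGTNA in direct repeat with 5 bases between them. GGTNA is a half-site of the kind that LXR dimers bind, without its first base. The 5 bases therefore include the first base of the second half-site, and LXR dimers favour a spacing shorter by that base. The stretches below run from 5′ to 3′ on the gene's own strand. For Nceh1 the RefSeq start lies inside the gene span given above, which begins at 27182965. The end of its stretch, with CACGTG, therefore lies within that span. Capitals mark GAGGAAGT on the reverse strand and CACGTG in Nceh1, the direct repeat on the reverse strand and TATAAA in Abca1, and GAGGAA in Lipa.
Nceh1, chr3:27182884-27183003, plus strand: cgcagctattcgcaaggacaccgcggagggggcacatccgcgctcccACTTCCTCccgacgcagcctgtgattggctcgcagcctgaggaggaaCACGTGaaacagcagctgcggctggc
Abca1, chr4:53159896-53160015, minus strand: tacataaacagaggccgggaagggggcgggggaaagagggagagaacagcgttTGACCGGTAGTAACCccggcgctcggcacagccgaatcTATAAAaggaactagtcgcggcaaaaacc
Lipa, chr19:34527605-34527724, minus strand: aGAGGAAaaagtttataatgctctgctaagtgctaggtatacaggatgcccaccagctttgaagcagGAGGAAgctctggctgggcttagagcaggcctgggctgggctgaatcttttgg
GAGGAAGT was found in 1 of the 7 windows, that of Nceh1 (bases -73 to -66), and in 3.20% of all 32851 windows. Its core was in 3 of the 7 (Nceh1, Pltp and Lipa) and in 28.3% of all windows. The direct repeat was in the Abca1 window alone of the 7 (bases -67 to -53) and in 0.718% of all windows. CACGTG was found in Nceh1 and Abca1 (7.15% of all windows) and TATAAA in Abca1, Mylip, Pltp and Lipa (13.6%). TATAAA spanned bases -29 to -24 in Abca1 and -32 to -27 in Mylip. In Lipa it lay at -239 to -234 on the reverse strand, and in Pltp at 36 to 41, after the start. These are matches of letters, and no binding was measured in these libraries.

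Among the efflux genes, Abca1 (ENSMUSG00000015243, chr4:53030787-53159895, minus strand) had 541.0, 593.2 and 473.5 CPM in the control mice and 579.2, 414.7 and 506.1 CPM in the aPU.1KO mice. The groups overlapped, with aPU.1KO mouse 1 above 2 of the controls. The means were 535.9 ± 60.0 and 500.0 ± 82.4 CPM, and the log2 fold change was -0.10 (standard error 0.15, edgeR adjusted p = 0.706), less than the spread between mice. Without aPU.1KO mouse 2 it was 0.016.

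Abcg1 (ENSMUSG00000024030, chr17:31057675-31117988, plus strand) had 78.9, 53.0 and 69.6 CPM in the control mice and 62.9, 20.9 and 61.5 CPM in the aPU.1KO mice. aPU.1KO mouse 2 stood alone, and the other 2 aPU.1KO mice lay among the controls. The means were 67.2 ± 13.1 and 48.4 ± 23.9 CPM, and the log2 fold change was -0.47 (standard error 0.40, edgeR adjusted p = 0.486), which was -0.12 without aPU.1KO mouse 2. There were 6.86, 11.2 and 6.80 Abca1 counts per Abcg1 count in the control mice and 9.21, 19.9 and 8.23 in the aPU.1KO mice, with mouse 2 of each group the highest of its group. This ratio, too, was formed after the values were seen.

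Scarb1 (ENSMUSG00000037936, chr5:125277087-125341094, minus strand), the HDL receptor, was the one gene of the 10 with a log2 fold change above 0. It had 90.9, 90.7 and 81.3 CPM in the control mice, the narrowest spread of the 10 genes among controls (1.12-fold), and 57.5, 154.9 and 72.1 CPM in the aPU.1KO mice. aPU.1KO mouse 2 was above all controls and the other 2 aPU.1KO mice were below all controls. The means were 87.6 ± 5.50 and 94.8 ± 52.5 CPM, and the log2 fold change was 0.11 (standard error 0.35, edgeR adjusted p = 0.859). The sign rested on that mouse, since the log2 fold change was -0.44 without it (edgeR adjusted p = 0.130), and limma-voom gave -0.016 with all 6 mice.

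Mylip (ENSMUSG00000038175, chr13:45389742-45412022, plus strand) had 49.8, 51.8 and 40.1 CPM in the control mice and 28.0, 47.1 and 37.2 CPM in the aPU.1KO mice. Only aPU.1KO mouse 2 lay within the control range. The means were 47.2 ± 6.30 and 37.4 ± 9.55 CPM, and the log2 fold change was -0.34 (standard error 0.20, edgeR adjusted p = 0.326). It was -0.54 to -0.17 with single mice left out. Of the 4 LXR targets among the 10 genes, Pltp alone was at an unadjusted p under 0.05 by edgeR with all 6 mice. Mylip was too when aPU.1KO mouse 2 was left out, and Pltp was not when control mouse 3 was left out.

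The NPC pair, which passes free cholesterol out of the lysosome, differed less than Lipa upstream of it. Npc2 (ENSMUSG00000021242, chr12:84754562-84773152, minus strand), the soluble carrier, had 945.7, 764.5 and 1056 CPM in the control mice and 951.5, 645.5 and 955.1 CPM in the aPU.1KO mice. The groups overlapped, with 2 aPU.1KO mice at the level of control mouse 1. The log2 fold change was -0.12 (standard error 0.19, edgeR adjusted p = 0.737), and 0.044 without aPU.1KO mouse 2.

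Npc1 (ENSMUSG00000024413, chr18:12189692-12236400, minus strand), the membrane protein that accepts the sterol, had 54.4, 41.0 and 47.6 CPM in the control mice and 39.7, 34.0 and 36.1 CPM in the aPU.1KO mice. The groups did not overlap, but the gap between them was small. The means were 47.7 ± 6.67 and 36.6 ± 2.88 CPM, and the log2 fold change was -0.38 (standard error 0.12, edgeR adjusted p = 0.118, DESeq2 adjusted p = 0.0642). With single mice left out it was -0.49 to -0.29, with edgeR adjusted p values of 0.0503 to 0.418. Npc1 shares 511 exon bases, 4.52% of its exon length, with Rmc1 on the opposite strand.

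Counted over the 10 genes, 4 had groups that did not overlap and were lower (Nceh1, Soat1, Lipa and Npc1), against 15.5% of all genes tested, and 0 were higher in that way, against 16.7%. The smallest two-sided p that an exact permutation test of 3 against 3 mice can give is 0.1. Every gene whose groups do not overlap has that p, so it adds nothing to the count of 4.

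Levels were compared between genes per kilobase of exon, counting all exon bases of a gene. In control mice Npc2 led with 169.6 ± 27.1 CPM per kilobase (SD, n = 3), followed by Pltp (102.9 ± 48.0), Abca1 (51.7 ± 5.79), Lipa (32.8 ± 15.0) and Mylip (14.6 ± 1.95). Scarb1 (10.3 ± 0.65), Abcg1 (9.20 ± 1.80), Nceh1 (7.35 ± 4.29), Soat1 (4.32 ± 2.07) and Npc1 (4.21 ± 0.59) came after them. Among neighbours in this order, only Abca1 and Lipa, and Mylip and Scarb1, had ranges over the control mice that did not overlap. In aPU.1KO mice Abca1 (48.3) came before Pltp (38.4), and Nceh1 (1.07) moved to the end, below Npc1 (3.23) and Soat1 (1.30). The ranges of Npc2 and Abca1, of Pltp and Lipa and of Npc1 and Soat1 did not overlap there. With the length of the longest transcript in place of all exon bases, the control mean was 57.1 CPM per kilobase for Lipa and 28.3 for Scarb1. It was 11.5 for Abcg1 and 8.28 for Npc1, so that the order depends on the length used. Lipa then came before Abca1, with ranges that overlapped, and Soat1 in place of Npc1 came last. Scarb1 (26.3 to 29.4 over the control mice) then came before Mylip (13.1 to 16.9), the reverse of their order by exon bases.

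**Figure D4:**
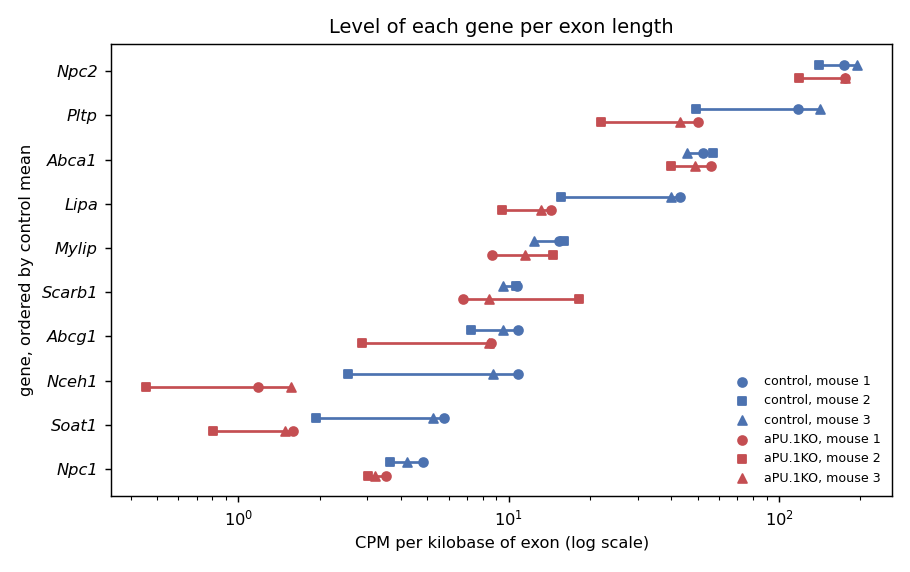
Level of each gene in CPM per kilobase of exon (log scale) in each mouse (circles, squares and triangles, mice 1, 2 and 3), with lines spanning the range of the control (blue) and aPU.1KO (red) mice. Npc2, Pltp and Abca1 are the highest in both groups, and the lines of Nceh1, Soat1, Lipa and Npc1 do not overlap between groups.

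Related genes were described by list, naming from each up to 3 of those with the lowest p. Of 12 LXR regulators and other LXR targets tested, 4 passed an unadjusted p of 0.05 as higher and 1 as lower. The shares of all genes tested were 11.9% and 13.7%. The median log2 fold change of the 12 was 0.28. The 4 became 7 without aPU.1KO mouse 3, 6 when control mouse 2 was left out, and 3 without control mouse 1 or control mouse 3. Apoc1, an apolipoprotein of HDL and chylomicrons, had 64.8, 71.7 and 68.3 CPM in control mice and 97.4, 113.3 and 89.3 CPM in aPU.1KO mice, with no overlap (log2 fold change 0.55, edgeR adjusted p = 0.0729). Nr1h3, which encodes LXR alpha, had 101.4 to 104.8 and 122.2 to 138.7 CPM (0.34, edgeR adjusted p = 0.0783). Arl4c, a small GTPase gene, was the one lower, at 4.95 to 6.93 and 2.67 to 3.30 CPM (-0.97, edgeR adjusted p = 0.0764). Apoe (0.51) and Srebf1 (0.59) were the others higher. The study named Apoc1, Nr1h3 and Srebf1 from these same libraries, so their presence in the list is not independent evidence of its direction. Nr1h2, for LXR beta, was at 38.1 to 43.3 CPM in control mice and 39.2 to 42.4 CPM in aPU.1KO mice. Abcg5 and Abcg8 had too few counts to be tested.

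A list of other cholesteryl ester genes also holds Acat1 and Acat2, thiolases that neither make nor cut the ester and are listed for the older name they share with the sterol acyltransferase. Of its 6 genes tested, 4 passed an unadjusted p of 0.05 by edgeR as higher and 0 as lower. Of all genes tested, 11.9% and 13.7% did so. The median log2 fold change of the 6 was 0.37 (Soat2 and Cel were not tested for low counts). The 4 became 2 without control mouse 1, without aPU.1KO mouse 1 or without aPU.1KO mouse 2. Lcat, which makes the ester in plasma, had a log2 fold change of -0.09. Ces1d, a carboxylesterase of lipid droplets, had 526.1, 664.0 and 540.9 CPM in control mice and 931.5, 1019 and 796.4 CPM in aPU.1KO mice (log2 fold change 0.67, edgeR adjusted p = 0.0775). Acat1, the mitochondrial thiolase and 1 of the 4, had a log2 fold change of 0.39 (edgeR adjusted p = 0.0992), and Ces1f one of 0.87 (edgeR adjusted p = 0.167). Carboxylesterase genes form a family of close copies, so the split of reads among them is uncertain. Lipe, for hormone-sensitive lipase, the main neutral cholesteryl ester hydrolase of adipocytes, had 1552, 1752 and 1593 CPM in control mice and 1971, 2107 and 1889 CPM in aPU.1KO mice (0.29, edgeR adjusted p = 0.172). Lipe is in the adipocyte marker list as well. There were 27.4, 131.7 and 34.7 Lipe counts per Nceh1 count in the control mice and 318.0, 879.7 and 229.3 in the aPU.1KO mice, a ratio formed after the values were seen.

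In the lysosome, 6 of 15 lipid hydrolases and activators passed an unadjusted p of 0.05 by edgeR as lower and 0 as higher. Of all genes tested, 13.7% and 11.9% did so, and the median log2 fold change of the 15 was -0.26. The 6 became 2 without aPU.1KO mouse 2 and 1 when either control mouse 1 or control mouse 3 was left out. Over all genes tested, the 1913 lower became 2034, 1135 and 1425 in these fits, in that order. Psap, whose product is cut into the saposin activators, had 2869, 1844 and 2909 CPM and 1699, 1349 and 1724 CPM (-0.68, edgeR adjusted p = 0.115). Gla, for alpha-galactosidase, had a log2 fold change of -0.95 (edgeR adjusted p = 0.121). Of 13 lysosomal membrane and transcription factor genes, 4 were lower and 0 higher (median -0.08), beside the same 13.7% and 11.9%. The 4 became 1 without control mouse 1 or without aPU.1KO mouse 1, 2 without control mouse 3 or without aPU.1KO mouse 2, and 6 without control mouse 2, and the 0 became 1 without aPU.1KO mouse 3. The lowest p were those of Tpcn2, a cation channel (-1.25, edgeR adjusted p = 0.0808), Tmem97, which binds NPC1 (-0.40, edgeR adjusted p = 0.123), and Scarb2, a lysosomal membrane protein (-0.35, edgeR adjusted p = 0.148). Control mouse 2 was the lowest control for Psap, Gla, Tpcn2 and Scarb2 but not for Tmem97 (43.7% of all genes tested), and it was the lowest for the macrophage marker sum, whose part here was not tested.

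**Figure D5:**
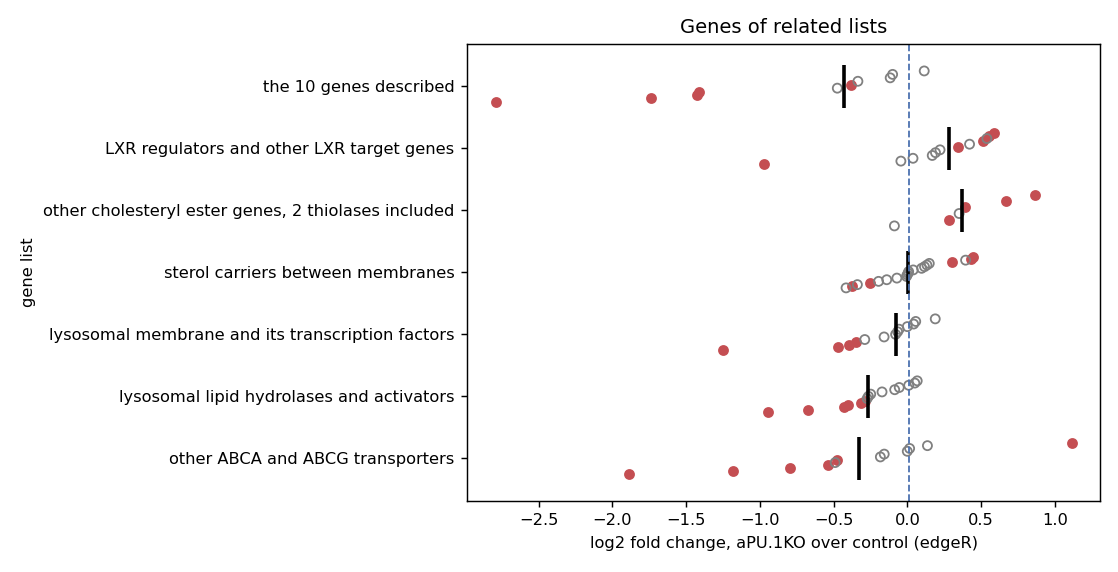
Log2 fold change (aPU.1KO over control, edgeR) of each tested gene of 6 related lists and of the 10 genes described; filled points have an unadjusted p under 0.05, black bars are medians and the dashed line is the median of all genes tested. The median is -0.43 for the 10 genes, 0.28 for the LXR list and 0.37 for the cholesteryl ester list, which includes the thiolases Acat1 and Acat2.

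Of 12 other ABCA and ABCG transporters tested, 1 was higher and 5 were lower at an unadjusted p under 0.05 (median log2 fold change -0.33). The same p was passed by 11.9% of all genes tested as higher and by 13.7% as lower. The 5 became 3 with control mouse 2 left out. The 1 stayed at 1 when mouse 2 of either group was left out, and became 0 when any other mouse was. Abca7, a relative of Abca1, had 22.5, 20.3 and 22.0 CPM in control mice and 16.4, 15.1 and 15.2 CPM in aPU.1KO mice (-0.47, edgeR adjusted p = 0.0753). Abca9 had 35.8, 22.6 and 26.0 CPM and 10.1, 11.4 and 15.8 CPM (-1.18, edgeR adjusted p = 0.0753), and Abcg3 1.31 to 3.50 and 0.316 to 0.995 CPM (-1.89, edgeR adjusted p = 0.0970). Abca12 and Abca13 were not tested for low counts. Of 20 sterol carriers between membranes, 3 were higher and 2 lower (median 0.01, also 0.01 over all genes tested). These counts were near the shares of all genes tested, 11.9% and 13.7%. The 3 became 1 without control mouse 1, control mouse 3 or aPU.1KO mouse 1, and the 2 became 0 without control mouse 1, control mouse 3 or aPU.1KO mouse 3 and 1 without aPU.1KO mouse 1 or 2. They were led by Tspo, of the outer mitochondrial membrane (0.43, edgeR adjusted p = 0.0866), Osbpl1a, an oxysterol-binding protein relative (0.44, edgeR adjusted p = 0.133), and Stard3, of late endosomes (-0.38, edgeR adjusted p = 0.160).

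Tested were 9 genes of the HDL particle, its lipases and receptors. At an unadjusted p under 0.05 by edgeR, 0 were higher (1 without aPU.1KO mouse 1) and 3 were lower. Of all genes tested, 11.9% were higher and 13.7% lower at that p. The median log2 fold change of the 9 was -0.29. Apoa1, whose product accepts cholesterol from ABCA1, had 257, 100 and 85 counts in the control libraries and 0, 3 and 2 in the aPU.1KO libraries, and passed the edgeR test (adjusted p = 0.0268). Its counts in aPU.1KO mice were at or under 3, so no fold is given. Apoa2 had 2.35, 2.63 and 1.98 CPM and 0.254, 0.588 and 0.0947 CPM (edgeR adjusted p = 0.0724). Both are also among the hepatocyte markers, all 9 of which were lower in aPU.1KO mice, and the part of those markers was not tested. Lrp1, a large endocytic receptor for lipoproteins, had 1028, 825.8 and 915.8 CPM and 677.4, 513.1 and 667.9 CPM, with no overlap (-0.58, edgeR adjusted p = 0.0892). Apoa4, Apom, Lipc and Pdzk1 had too few counts to be tested.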

How the data were processed

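RNA from the adipocyte fraction of 6 mice was sequenced. The authors quantified the reads with Salmon and deposited estimated counts summed per gene, as whole numbers without normalization. The submitters' processing notes name FastQC, Salmon and GRCm38, and the Salmon version, the annotation and the strand setting are not given in the sources used here. Of 35122 identifiers, 35031 were matched to a symbol in GENCODE M21, and the others hold 0.0367% of counts. The study gives the age as over 1 year, unlike the labels. No pair of the 6 libraries was a duplicate, since their chi-square was at least 18.8 for each degree of freedom, the lowest being that of control mouse 2 and aPU.1KO mouse 3.

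Counts entered edgeR 4.0.16 in R 4.3.3 (filterByExpr, TMM, glmQLFit and glmQLFTest with defaults, Benjamini-Hochberg adjustment over the 13925 genes kept). CPM uses TMM-scaled library sizes. DESeq2 1.42.0 and limma-voom (limma 3.58.1) were alternatives, beside RLE and upper-quartile factors, 2 other filters, robust dispersion, the other legacy setting and leaving out each mouse. The fits were tested on simulated data. Figures were drawn with matplotlib 3.10.9.

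The 10 genes and all lists were chosen with earlier results of these data known. All 10 genes are described, and from each pathway list the 3 genes with the lowest p. A gene that this rule names is not reported here. From each cell type list, the gene with the highest mean is named. Apoe, Srebf1, Nr1h2, Lipe, Trem2, Cd163, Fabp5, Cd9, Spp1 and Ctsa were named after their values were seen. Exon lengths and coordinates are from GENCODE M21 (GRCm38). Promoter motifs were chosen with knowledge of the genes.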

Additional observations from a re-analysis of the deposited data

How the results depend on the processing

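Of 140 repeats of a log2 fold change of the 10 genes, 128 kept their direction and their side of the threshold, 8 passed an adjusted p of 0.05 where edgeR with all mice did not (Nceh1, Soat1, Lipa and Pltp under DESeq2 and without control mouse 2), and 4 changed sign: Abca1 (0.016) and Npc2 (0.044) without aPU.1KO mouse 2, and Scarb1 with limma-voom (-0.016) and without aPU.1KO mouse 2 (-0.44). With single mice left out these 3 ran from -0.23 to 0.016, from -0.24 to 0.044 and from -0.44 to 0.36. The number of the 10 genes at an adjusted p under 0.05 was 0 by edgeR and 4 by DESeq2, and 0 to 4 with single mice left out. Over all genes it was 33 by edgeR, 5 with at least 10 counts required in every library, 146 with no filter, 1833 by DESeq2, and 0 (without control mouse 1) to 1193 (without control mouse 2) with single mice left out. The cause was not tested. The number at an unadjusted p under 0.05 was 5 by edgeR, DESeq2 and limma-voom, and 4 to 7 with single mice left out. Scaling and filter moved the median log2 fold change of all genes by less than 0.1. There were 3 mice per group, and control mouse 1 alone was sequenced more deeply. No fit with paired mice was made: the controls were littermates, but the labels do not say which mice share a litter, and mouse tag numbers that lie close together across groups were not taken as pairs.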
